A study of Mus musculus with 8 samples.

Results

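Interferon-stimulated genes, the interferon-inducible GTPases and the genes of interferon reception were examined in mouse splenic type 1 conventional dendritic cells (cDC1), the dendritic cells that present antigen to CD8 T cells. The genes were a list of 54 symbols chosen by name and matched to the array's annotation by symbol. Of these, 50 were measured, each by 1 probe set, among 19505 named genes on the array; Gbp5, Gbp6, Ifi44 and Ifi47 were not analysed here. They were described in 3 groups, of which the first holds 30 measured genes known as targets of type I interferon, the second 10 interferon-gamma GTPases (6 guanylate-binding proteins and 4 immunity-related GTPases), and the third 10 genes of interferon regulatory factors (IRFs) and receptor chains.

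The cells came from the spleens of untreated (naive) wild-type mice of strain C57BL/6 and were sorted on the signal written TMRM/MG in the labels. TMRM is a dye that accumulates in mitochondria with their membrane potential, and the labels do not spell out MG. Total RNA of 4 TMRM/MG-high and 4 TMRM/MG-low samples was hybridised to 1 whole-transcript array each; all 8 share tissue, strain and genotype, and no agent was given per the labels. Age, sex, and whether a sample is 1 animal or a pool are not stated in them, and the spread behind each p-value is that of these samples, which could be technical in part. The 10 cDC1 markers (Xcr1, Clec9a, Irf8, Batf3, Cd8a, Itgae, Cadm1, Tlr3, Naaa and Wdfy4) lay above the array's negative control median in all 8 arrays. Their mean signal was 11.92 to 12.20 (low) and 12.0 to 12.15 (high). In limma 0 of 10 passed the test, and 3 had an unadjusted p under 0.05, against 25.5% of all probe sets. The arrays of the fractions did not overlap in 4 of 10, against 16.1% of all probe sets. Of these Cd8a and Xcr1 were higher in the high fraction, and Clec9a and Wdfy4 lower.

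Type I interferons bind a receptor of IFNAR1 and IFNAR2, whose kinases TYK2 and JAK1 phosphorylate STAT2 among other targets. STAT2 joins IRF9 in a complex that binds the interferon-stimulated response element, and the induced genes make antiviral proteins such as the IFIT, OAS and MX families. Interferon-gamma acts through IFNGR1 and IFNGR2, JAK1 and JAK2, partly by way of IRF1, and strongly induces GTPases that attack the vacuoles of intracellular pathogens. IRF2 binds the same element as IRF1 and is known mainly as a repressor of interferon-induced transcription, and cDC1 are known to need type I interferon signals for full priming of T cells against tumours.

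The response element is the sequence bound by the complex of STAT2 and IRF9. Matches to its core are shown for the 2 genes that differed and for 8 other genes that did not pass the test. These 8 are a selection from the other genes with a match. For a gene with several matches only 1 is shown. Its core, GAAA, any 2 bases and GAAA again, was searched on both strands (on the other strand TTTC, any 2 bases, TTTC) in the RefSeq promoters of assembly GRCm38.p6, each from 250 bases before to 50 bases after a start site. Of the measured genes with a promoter in the table, it was found in 6 of 6 GTPase genes, 11 of 21 type I genes and 1 of 10 IRF and receptor genes. Over all genes with a promoter the share was 3.99% of 27025 (3.44% of 32851 windows). Among the genes not measured, the GTPase gene Gbp5 had a match, and the GTPase gene Ifi47 and the type I gene Ifi44 had a promoter without one. The 1 match among IRF and receptor genes was in Irf2, 241 bases before its start site. A match describes these letters only, and overlapping matches were counted separately. Each line gives the gene's strand 5′ to 3′ with 1 match in capitals.
Irf2, chr8:46739495-46739525, plus strand: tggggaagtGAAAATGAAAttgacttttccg
Irgm2, chr11:58214901-58214934, plus strand: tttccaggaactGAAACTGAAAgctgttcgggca
Igtp, chr11:58199510-58199543, plus strand: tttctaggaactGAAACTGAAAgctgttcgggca
Irgm1, chr11:48871423-48871456, minus strand: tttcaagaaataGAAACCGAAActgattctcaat
Gbp2, chr3:142620592-142620625, plus strand: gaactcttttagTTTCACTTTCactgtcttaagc
Gbp3, chr3:142559987-142560020, plus strand: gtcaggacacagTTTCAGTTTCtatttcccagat
Gbp7, chr3:142530271-142530304, plus strand: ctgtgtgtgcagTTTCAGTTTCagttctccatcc
Isg15, chr4:156200869-156200902, minus strand: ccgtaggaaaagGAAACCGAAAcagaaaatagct
Ifit1, chr19:34640792-34640825, plus strand: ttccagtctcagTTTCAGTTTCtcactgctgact
Ifit3, chr19:34583395-34583428, plus strand: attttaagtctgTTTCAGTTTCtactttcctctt
The windows of Irgm2 and Igtp, which neighbour each other, differed at 1 of 34 bases. Both matches of Ifit3 and their flanks were identical over 34 bases to those of Ifit3b, a nearby near-copy. Promoter windows do not show whether the array's probes tell the pair apart. Shared probes are possible and were not checked, so both values are uncertain.

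Most interferon-stimulated genes did not pass the test between TMRM/MG-high and TMRM/MG-low cDC1. Of the 50 genes, 2 were lower in the high fraction and 0 were higher (limma, Benjamini-Hochberg adjusted over all 22206 probe sets, threshold 0.05). These were Irf2, with a log2 difference of -0.69 (SE 0.087), and Irgm2, with -0.40 (SE 0.11). Called probe sets made up 4.0% of these genes and 8.25% of all probe sets tested (5.28% higher and 2.96% lower). At an unadjusted p under 0.05 there were 4 higher and 6 lower genes, 10 of 50, against 25.5% of all probe sets.

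The size of what could be missed was bounded by the intervals. The 95% interval of the difference lay within 0.5 log2 units of 0 in 39 of 50 genes and within 1 unit in 50 of 50. Over all 22206 probe sets this was so in 17440 and 21982, so the bound is not particular to these genes. The median difference was -0.044 over the 50 genes and 0.009 over all probe sets, and the median absolute difference was 0.131 against 0.129. By group the median was -0.03 for the type I genes (14 positive, 16 negative), -0.113 for the GTPases (2 positive, 8 negative) and -0.007 for the IRF and receptor genes (4 positive, 6 negative). Negative differences made up 80.0% of the GTPases and 47.9% of all probe sets. These medians and shares are descriptions of named genes and were not tested against each other. The ranges of the fractions were separate in 5 of 50 genes, against 16.1% of all probe sets. Ifnar2 was the 1 that was higher (9.7% of all probe sets), and Irf2, Irgm2, Irf3 and Zbp1 the 4 that were lower (6.37%).

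**Figure D1:**
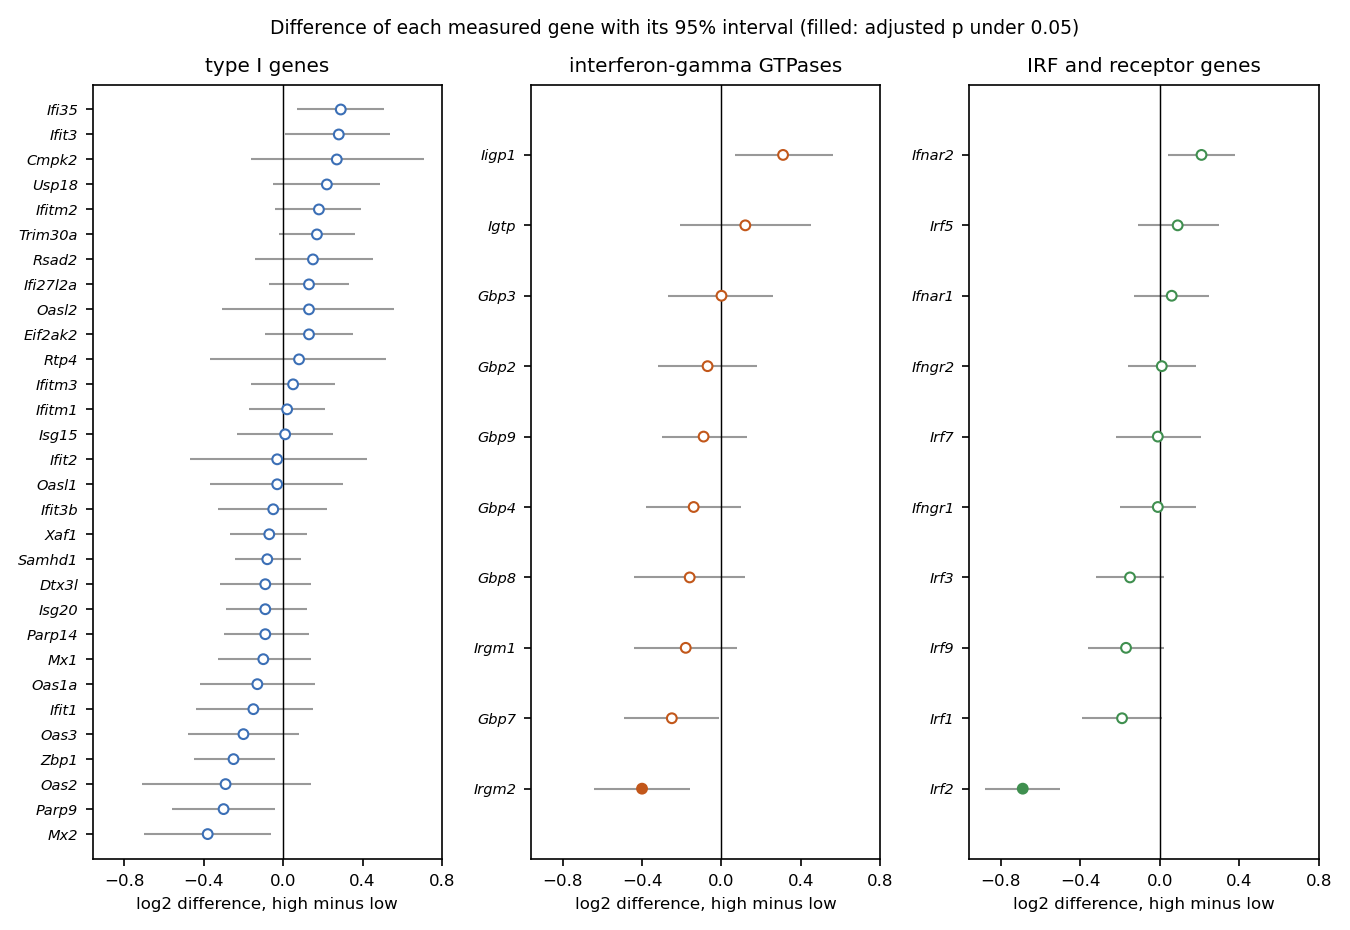
Log2 difference (high minus low) of each of the 50 measured genes with its 95% interval from limma, in 3 panels by group; filled points passed the adjusted threshold of 0.05. Irf2 (-0.69) and Irgm2 (-0.40) are the filled points, and every interval lies within 1 log2 unit of 0.

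Markers of other cell types and spike-in controls are given beside the falls of Irf2 and Irgm2. The marker lists were chosen with earlier results of these data known, so their counts are descriptions and no independent evidence. Over all probe sets 5.28% were called higher, 2.96% were called lower and 25.5% had an unadjusted p under 0.05. Of 13 plasmacytoid dendritic cell markers 11 rose and 0 fell (mean signal 9.23 to 9.41 in low and 9.95 to 10.38 in high arrays). Of 7 T cell markers 5 fell (8.82 to 9.49 low, 8.58 to 8.83 high), of 8 NK markers 1 fell and 1 rose (9.22 to 10.21, 8.86 to 9.65), and of 8 neutrophil markers 1 fell (9.58 to 10.20, 8.58 to 9.63). Of the NK markers 7 of 8 had a negative difference (median -0.742, 6 lower at an unadjusted p under 0.05), as did 8 of 8 neutrophil markers (median -0.745, 4 lower). B cell markers had 0 of 7 called in limma and 0 at an unadjusted p under 0.05, and monocyte and macrophage markers 2 rises of 10 (9.57 to 9.69, 9.53 to 10.07). All of these markers other than Cd209d lay above the negative control median on every array. Fewer cells of a type and less RNA per cell cannot be told apart in bulk samples. The mean of the spike-ins dap and thr was 8.29 to 9.19 in low and 6.32 to 7.84 in high arrays. With it as a covariate limma called 0 probe sets (1156 at an unadjusted p under 0.05), and Irf2 differed by -0.71 (SE 0.20, adjusted p = 0.831) and Irgm2 by -0.77 (SE 0.22, adjusted p = 0.905). The spike-in mean did not overlap between the fractions, so this fit cannot tell the spike-in level and the fraction apart. Without the covariate the SE was 0.087 for Irf2 and 0.11 for Irgm2. The part of these measures in the falls was not tested.

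Of the receptor chains, which set how well a cell senses interferon, none passed the test. Ifnar2, the chain that binds type I interferon tightly, read 11.71, 11.75, 11.75 and 11.65 in low replicates 1 to 4 and 11.82, 11.94, 11.92 and 12.02 in high replicates 1 to 4. All high arrays lay above all low arrays, by a small step (log2 difference 0.21, SE 0.078, 95% interval 0.04 to 0.38, limma adjusted p = 0.116), and the call was made only with an intensity trend and a robust fit, of the settings run (adjusted p = 0.0184). Ifnar1, the partner chain that carries TYK2, read 10.51, 10.60, 10.69 and 10.48 in low replicates 1 to 4 and 10.59, 10.58, 10.58 and 10.79 in high replicates 1 to 4. The fractions overlapped, and high replicate 4 stood above the rest (log2 difference 0.06, SE 0.087, 95% interval -0.13 to 0.25, limma adjusted p = 0.704).

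Ifngr1, which binds interferon-gamma, read 12.10, 12.12, 12.13 and 12.12 in low replicates 1 to 4 and 11.91, 12.10, 12.22 and 12.21 in high replicates 1 to 4. The low arrays lay within the range of the high arrays, of which replicate 1 was lowest (log2 difference -0.01, SE 0.088, 95% interval -0.20 to 0.18, limma adjusted p = 0.974). Ifngr2, its signalling partner, read 11.21, 11.25, 11.35 and 11.25 in low replicates 1 to 4 and 11.17, 11.33, 11.28 and 11.32 in high replicates 1 to 4. Its fractions overlapped almost fully (log2 difference 0.01, SE 0.079, 95% interval -0.16 to 0.18, limma adjusted p = 0.954).

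Of the 6 IRFs, Irf2 fell and the others did not pass the test. Its signal was 10.52, 10.41, 10.35 and 10.46 in low replicates 1 to 4 and 9.63, 9.88, 9.67 and 9.82 in high replicates 1 to 4. Every high array was below every low array, with a gap wider than the range of either fraction. The difference was -0.69 (SE 0.087, 95% interval -0.88 to -0.50, limma adjusted p = 0.00237), a signal 1.61-fold lower in the high fraction. The call held without any 1 of the 8 arrays (-0.73 to -0.65, highest adjusted p = 0.0132).

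Irf1, the activator that competes with IRF2 for the same element, differed by -0.19 (95% interval -0.39 to 0.01, limma adjusted p = 0.211). Irf9, the DNA-binding partner of STAT2, read 10.42, 10.66, 10.64 and 10.62 in low replicates 1 to 4 and 10.28, 10.44, 10.44 and 10.50 in high replicates 1 to 4. Most high arrays lay below most low arrays, but low replicate 1 lay among the high values (log2 difference -0.17, SE 0.087, 95% interval -0.36 to 0.02, limma adjusted p = 0.249). Irf7, which amplifies interferon-alpha production, read 10.42, 10.51, 10.71 and 10.53 in low replicates 1 to 4 and 10.35, 10.68, 10.48 and 10.62 in high replicates 1 to 4. The fractions covered the same range (log2 difference -0.01, SE 0.098, 95% interval -0.22 to 0.21, limma adjusted p = 0.968). Irf3, activated downstream of nucleic acid sensors, differed by -0.15 with no overlap of the arrays (adjusted p = 0.265), and Irf5, which acts downstream of Toll-like receptors, by 0.095 (adjusted p = 0.565).

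The signalling genes between receptor and promoter were taken from a second list of kinases, STATs, phosphatases, IRF cofactors and inhibitors. Of 20 genes measured 5 rose and 3 fell (40.0%), against the background of 8.25%. This list was also chosen with earlier results of these data known, so the share is a description. Stat2 is in the list of other interferon-stimulated genes too and is counted in both. Stat2, which carries the transactivation domain of the type I complex, read 10.78, 10.98, 10.95 and 10.85 in low replicates 1 to 4 and 10.33, 10.37, 10.28 and 10.43 in high replicates 1 to 4. All high arrays lay below all low arrays (log2 difference -0.54, SE 0.082, 95% interval -0.71 to -0.36, limma adjusted p = 0.00581). Tyk2, the kinase on IFNAR1, read 11.58, 11.58, 11.39 and 11.47 in low replicates 1 to 4 and 11.08, 11.12, 11.00 and 11.05 in high replicates 1 to 4. It too had no overlap (log2 difference -0.44, SE 0.08, 95% interval -0.62 to -0.27, limma adjusted p = 0.0117). Jak1, the kinase shared by both receptors, read 10.47, 10.57, 10.50 and 10.56 in low replicates 1 to 4 and 10.67, 10.61, 10.56 and 10.58 in high replicates 1 to 4. Its fractions overlapped and its interval was narrow (log2 difference 0.08, SE 0.075, 95% interval -0.09 to 0.24, limma adjusted p = 0.572).

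Several inhibitors and cofactors moved in either direction. Pias1 (0.37, adjusted p = 0.0296) rose and Pias3 (-0.37, adjusted p = 0.0382) fell, both of them inhibitors of STAT proteins. Ptpn2, a phosphatase of JAK1, rose (0.27, adjusted p = 0.0486), as did Irf2bp2, a corepressor of IRF2 (0.32, adjusted p = 0.0339), and the corepressor Trim28 (0.54, adjusted p = 0.0147). Socs1, the feedback inhibitor of the JAK kinases, read 8.40, 8.20, 7.96 and 8.08 in low replicates 1 to 4 and 8.0, 7.77, 7.96 and 7.75 in high replicates 1 to 4. The high arrays tended lower with overlap (log2 difference -0.29, SE 0.11, 95% interval -0.53 to -0.06, limma adjusted p = 0.115). Of these 8 calls, those of Stat2 and Tyk2 were kept without any 1 of the 8 arrays. The 6 others, Herc6 (given with the ISG15 genes) among them, were lost without at least 1 array; for Ptpn2 this was so without each of the 8. Quantile normalization left 1 rise and 3 falls, with Pias1 (adjusted p = 0.0507), Ptpn2 (0.133), Irf2bp2 (0.0581) and Herc6 (0.0793) no longer past the threshold. Centring on array medians also lost Ptpn2 (adjusted p = 0.0707), Irf2bp2 (0.0511) and Herc6 (0.0745).

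**Figure D2:**
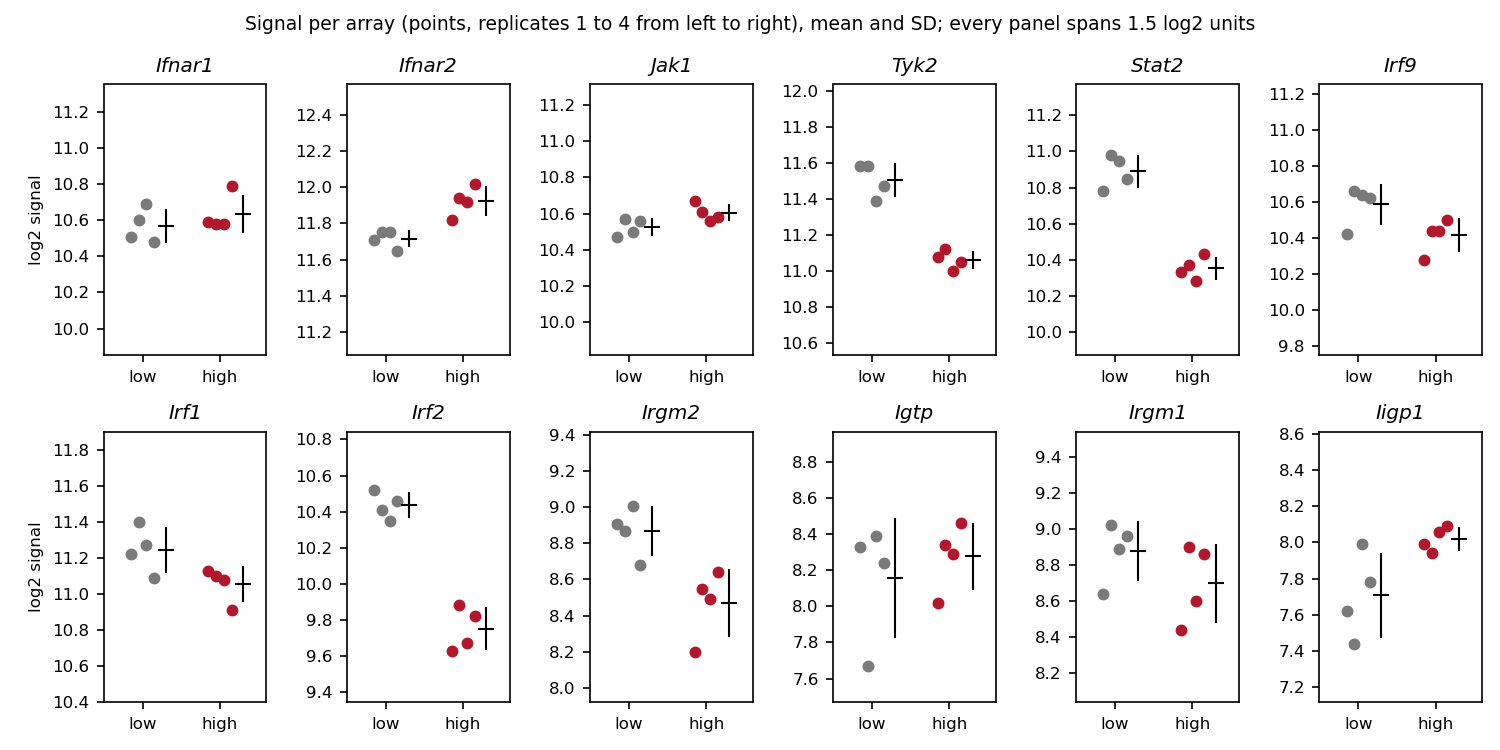
Log2 signal of 12 genes per array, with the mean and SD of each fraction (n = 4) beside the points and 1.5 log2 units in every panel. Irf2, Stat2, Tyk2 and Irgm2 lie lower in every high array than in any low array, whereas Ifnar1, Jak1, Irf9, Irf1, Igtp, Irgm1 and Iigp1 overlap and Ifnar2 lies slightly higher.

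In the type I group 0 of 30 genes passed the test, against 8.25% of all probe sets. An unadjusted p under 0.05 was found in 5 of 30 (2 higher and 3 lower), against 25.5% of all probe sets. The 3 genes with the smallest p were Ifi35, Zbp1 and Mx2. Ifi35, whose protein pairs with NMI, read 10.54, 10.74, 10.90 and 10.66 in low replicates 1 to 4 and 10.87, 11.14, 10.93 and 11.06 in high replicates 1 to 4. High values tended above low ones, with low replicate 3 among them (log2 difference 0.29, SE 0.1, 95% interval 0.07 to 0.51, limma adjusted p = 0.0949). Leaving out low replicate 3 brought the gene past the threshold (0.35, adjusted p = 0.0433), as did a robust fit with an intensity trend (adjusted p = 0.0356).

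Zbp1, a sensor of Z-form nucleic acids that can start cell death, read 9.85, 9.64, 9.72 and 9.49 in low replicates 1 to 4 and 9.32, 9.49, 9.48 and 9.43 in high replicates 1 to 4. The high arrays lay at or below the lowest low array (log2 difference -0.25, SE 0.093, 95% interval -0.45 to -0.04, limma adjusted p = 0.125). Mx2, a dynamin-like antiviral GTPase, read 8.76, 9.30, 8.72 and 8.63 in low replicates 1 to 4 and 8.43, 8.64, 8.60 and 8.22 in high replicates 1 to 4. Low replicate 2 stood above all others, and high replicate 2 overlapped low replicate 4 (log2 difference -0.38, SE 0.15, 95% interval -0.70 to -0.06, limma adjusted p = 0.131). Its relative Mx1 differed by -0.10 (adjusted p = 0.634).

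The IFIT genes, whose proteins bind foreign RNA and block its translation, differed by -0.15 (Ifit1), -0.027 (Ifit2), 0.28 (Ifit3) and -0.054 (Ifit3b), with limma adjusted p = 0.18 for Ifit3 and 0.552 to 0.952 for the other 3. Ifit2 read 6.65, 7.04, 7.05 and 6.63 in low replicates 1 to 4 and 6.14, 7.10, 6.80 and 7.22 in high replicates 1 to 4. High replicate 1 was lowest and 4 of the 8 arrays were at or below their negative control median, so the gene was close to background. Ifit3b read 7.02, 6.92, 7.19 and 7.14 in low replicates 1 to 4 and 6.95, 6.73, 7.37 and 7.0 in high replicates 1 to 4. Its fractions overlapped, with 1 array at or below background.

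Rsad2 (viperin), which makes a chain-terminating nucleotide, read 6.95, 7.10, 7.07 and 6.78 in low replicates 1 to 4 and 6.96, 7.53, 7.15 and 6.87 in high replicates 1 to 4. High replicate 2 stood above the others and the fractions overlapped (log2 difference 0.15, SE 0.14, 95% interval -0.14 to 0.45, limma adjusted p = 0.524), and 1 array was at or below background. Cmpk2, a neighbour of Rsad2 in the genome and a nucleotide kinase, differed by 0.27 with a wide interval of -0.16 to 0.71 (adjusted p = 0.426). Of the oligoadenylate synthase family, whose active synthases sense double-stranded RNA and activate RNase L, 0 of 5 genes passed: Oas1a at -0.13, Oas2 at -0.29, Oas3 at -0.20, and the synthase-like Oasl1 at -0.034 and Oasl2 at 0.13. Close copies of Oas1a may share probes, which leaves its value uncertain.

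The ISG15 system tags proteins with a small ubiquitin-like modifier. Isg15 itself differed by 0.0062 (95% interval -0.23 to 0.25, adjusted p = 0.979), and Usp18, the protease that removes the modifier and also restrains IFNAR2, by 0.22 (adjusted p = 0.294; 0.35 and called without low replicate 3, adjusted p = 0.0279). Beyond these genes, the activating enzyme Uba7 fell (-0.29, adjusted p = 0.0448), the conjugating enzyme Ube2l6 did not pass (0.28, adjusted p = 0.326) and the ligase Herc6 rose (0.32, adjusted p = 0.0498). Differences between these genes were not tested. Each of the 2 calls was lost in 7 of the 8 omissions of 1 array.

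The 3 IFITM genes, whose proteins hinder virus entry at membranes, differed by 0.022 (Ifitm1), 0.18 (Ifitm2) and 0.05 (Ifitm3), and none passed; all 3 were positive here, but 1 of 3 after quantile normalization or without high replicate 4 and 0 of 3 with the spike-in covariate. Ifitm2 read 11.82, 11.94, 12.21 and 12.0 in low replicates 1 to 4 and 12.13, 12.27, 12.26 and 12.03 in high replicates 1 to 4. The high arrays lay in the upper part of the low range or just above it (log2 difference 0.18, SE 0.1, 95% interval -0.04 to 0.39, limma adjusted p = 0.299). Trim30a, a ubiquitin ligase that restrains Toll-like receptor signalling, read 11.79, 11.87, 12.01 and 11.84 in low replicates 1 to 4 and 12.04, 12.06, 12.17 and 11.93 in high replicates 1 to 4. Low replicate 3 fell among the high arrays (log2 difference 0.17, SE 0.086, 95% interval -0.02 to 0.36, limma adjusted p = 0.241). Parp9, Dtx3l and Parp14, close together in the genome, encode an ADP-ribosyltransferase with its ubiquitin ligase partner and another ADP-ribosyltransferase. They differed by -0.30, -0.087 and -0.086 (adjusted p = 0.144, 0.655 and 0.643).

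The remaining type I genes had small differences. Samhd1, which depletes deoxynucleotides, differed by -0.077 with the interval -0.24 to 0.09. Eif2ak2, the RNA-activated kinase PKR, differed by 0.13, the exonuclease gene Isg20 by -0.088, Ifi27l2a by 0.13, the apoptosis-related Xaf1 by -0.075 and Rtp4, a receptor transporter, by 0.076. Their adjusted p ranged from 0.413 to 0.857. For Rtp4 the interval of -0.37 to 0.52 was wide, since single arrays ran from 6.85 to 7.93.

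Of the interferon-gamma GTPases, 1 of 10 fell and 0 rose, against 2.96% and 5.28% of all probe sets. An unadjusted p under 0.05 was found in 3 of 10 (1 higher and 2 lower), against 25.5% of all probe sets. Irgm2, a regulatory immunity-related GTPase, read 8.91, 8.87, 9.01 and 8.68 in low replicates 1 to 4 and 8.20, 8.55, 8.49 and 8.64 in high replicates 1 to 4. All high arrays lay below all low arrays, with a gap between the nearest pair that was small beside the range of either fraction. The difference was -0.40 (SE 0.11, 95% interval -0.64 to -0.16, limma adjusted p = 0.0471), 1.32-fold lower in the high fraction. The call was lost without any 1 array other than low replicate 4 (adjusted p = 0.0577 to 0.108, differences -0.45 to -0.31) and with arrays centred on their medians (adjusted p = 0.0511).

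Of the other immunity-related GTPases, 0 of 3 passed the test. Igtp, also a regulatory member, whose promoter window matched that of Irgm2 in all but 1 base, read 8.33, 7.67, 8.39 and 8.24 in low replicates 1 to 4 and 8.02, 8.34, 8.29 and 8.46 in high replicates 1 to 4. Low replicate 2 stood below all other arrays, which overlapped (log2 difference 0.12, SE 0.15, 95% interval -0.21 to 0.45, limma adjusted p = 0.668). Irgm1, the third regulatory member, differed by -0.18 (adjusted p = 0.386). Iigp1, an effector GTPase that disrupts pathogen vacuoles, differed by 0.31 the other way, with the interval 0.07 to 0.56 (adjusted p = 0.107; 0.41 and called without low replicate 3, adjusted p = 0.0268). The difference between these genes was not tested.

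The guanylate-binding proteins, which gather on pathogen vacuoles and bacteria, had differences below 0 throughout, and 0 of 6 passed. Gbp7 differed by -0.25 (95% interval -0.49 to -0.01, adjusted p = 0.185), and Gbp2 and Gbp3 of the same gene cluster by -0.071 and -0.0037. In the other gene cluster, Gbp4 differed by -0.14, Gbp8 by -0.16 and Gbp9 by -0.087. The adjusted p of these 5 ranged from 0.463 to 0.988, and each interval lay within 0.5 log2 units of 0. All 6 were negative with each between-array scaling run, and 5 of 6 with the spike-in covariate or without low replicate 1, 2 or 4 or high replicate 2 or 3. Members of the Gbp4, Gbp8 and Gbp9 cluster are close relatives and may share probes.

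Genes whose promoter held the element lay on both sides of 0. The median difference was -0.029 in the 18 genes with a match (-0.69 to 0.28) and -0.009 in the 19 without one (-0.19 to 0.29). Both genes that fell, Irf2 and Irgm2, had a match, and the other 16 with a match did not pass. The genes share arrays and were chosen by name, so this is a description.

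**Figure D3:**
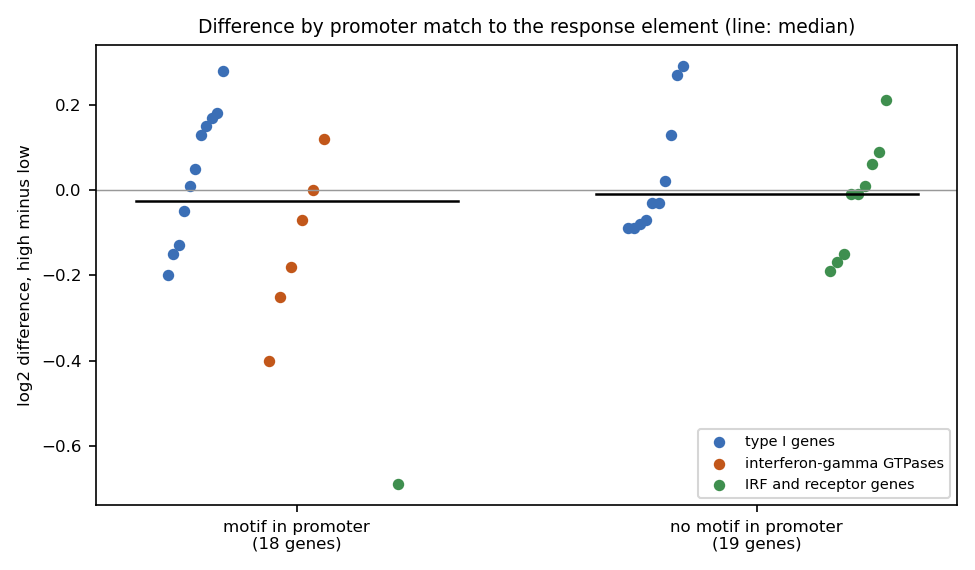
Log2 difference (high minus low) of the 37 genes with a promoter in the table, split by a match to the element's core and coloured by group, with the median of each class as a line. The 18 genes with a match spread on both sides of 0, and Irf2 is the lowest point at -0.69.

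Other interferon-stimulated genes, from a list of 70 of which 58 were measured, gave 4 rises and 6 falls, 17.2% against 8.25% of all probe sets (5.28% higher and 2.96% lower). The list was chosen with earlier results of these data known, so this share is a description. The fall of Stat2 is also counted in the signalling list. Bst2 (tetherin; 0.79, SE 0.086), Il15, a cytokine that sustains T and NK cells (0.63), the chemokine gene Cxcl10 (0.32) and the nuclear body gene Sp140 (0.32) rose. The MHC class II transactivator gene Ciita (-0.60), Stat2, Helz2 (-0.45), the RNA helicase gene Dhx58 (-0.45), the antiviral deaminase gene Apobec3 (-0.32) and Uba7 fell. Bst2 is also 1 of the 13 plasmacytoid dendritic cell markers, of which 11 rose. Calls for Bst2, Il15, Ciita, Stat2 and Helz2 were kept without any 1 of the 8 arrays, and those for Cxcl10, Sp140, Dhx58, Apobec3 and Uba7 were lost in 4 to 7 of the 8 omissions. Quantile normalization (adjusted p = 0.0573 and 0.0987) and centring (0.0627 and 0.062) also lost Cxcl10 and Sp140, and a robust fit with an intensity trend lost Cxcl10 (0.0537).

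Of 36 further GTPases and gene copies, likewise listed with earlier results known, 26 were measured. Of these 11.5% were called, against 8.25% of all probe sets. Atl3, an atlastin of the endoplasmic reticulum, rose (0.58, adjusted p = 0.00847), and the near-identical 9930111J21Rik1 (-0.43) and 9930111J21Rik2 (-0.37) fell. The copies may share probes, so both values are uncertain; their calls were lost in 4 and 5 of the 8 omissions, and that of Atl3 in none. Among interferon genes themselves 0 of 19 measured of 21 passed in limma, and 2 had an unadjusted p under 0.05: Ifng (-0.53, adjusted p = 0.13) and Ifna5 (-0.34, adjusted p = 0.146). Over all probe sets 25.5% had an unadjusted p under 0.05. Ifna4, Ifna11, Ifna12, Ifna13 and Ifnk were at or below the negative control median in all 8 arrays, so their lack of a call says little. Interferon-alpha genes are near-identical, so single values are uncertain.

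Arrays of one fraction differed among themselves in this gene set. High replicate 1 had the lowest value of the 4 high arrays in 29 of the 50 genes (58.0%), against 30.7% of all probe sets, and the highest in 1 gene. The mean signal of the 50 genes was 9.18 in high replicate 1 and 9.33 to 9.40 in the other high arrays, against 9.31 to 9.42 in the low arrays. Without high replicate 1 the median difference was 0.024 for the type I genes and 0.048 for the IRF and receptor genes, both then above 0, and -0.070 for the GTPases. High replicate 4 had the highest value of the high arrays in 9 of 10 GTPases. The spread within a fraction was largest for Ifit2, Rtp4, Cmpk2, Oasl2 and Oas2 (pooled SD 0.37 to 0.38), against a median of 0.15 over all probe sets and 0.10 for the IRF and receptor genes.

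**Figure D4:**
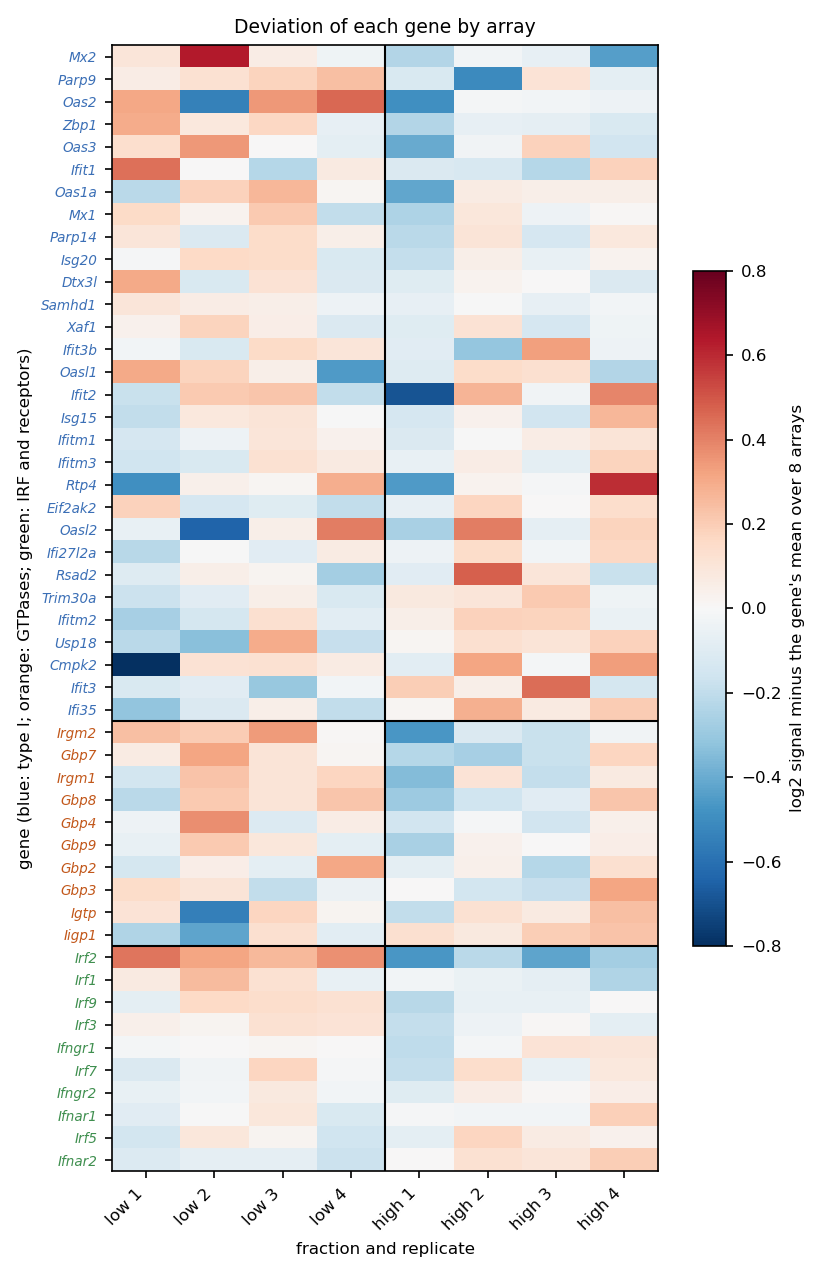
Log2 signal of each of the 50 genes on each array minus the gene's mean over the 8 arrays, with genes ordered by difference within the 3 groups. In the rows of Irf2 and Irgm2 every low array lies above the gene's mean and every high array below it, and high replicate 1 is the lowest of the high arrays in 29 of 50 rows.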

How the data were processed

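The deposited values are log2 signals per probe set that the authors made with RMA in Affymetrix Expression Console 1.1, per the submitters' processing notes; genome build: not given in the sources used here. RMA gives all arrays one distribution at the level of single probes, which tends to remove a shift common to most genes. The probe set values still differed slightly, with array medians of 8.11 to 8.16 over the tested probe sets. Signals of different probe sets cannot be compared. Arrays give no read depth; their number limits the precision. Of 22206 probe sets tested (control probe sets left out), 19572 had 1 gene symbol, 2634 had none, and all 19572 matched RefSeq (GRCm38.p6) by Entrez ID with no symbol changed. The fractions were compared with limma 3.58.1 (lmFit, eBayes; R 4.3.3), two-sided, without a block, with Benjamini-Hochberg adjustment over all probe sets; the procedure was tested on simulated data. Differences are log2, high minus low.

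The genes and lists were chosen with earlier results of these data known. Values per array are printed for called genes, for the 3 smallest p where a group had none, for non-overlapping differences of at least 0.4, for the 3 genes of highest and of lowest mean signal, and for Irf7, Irf9, the receptor chains, Stat2, Tyk2, Jak1 and Socs1; Igtp and other genes were added after their values were seen. Of the other pathway lists, each called gene is named. Promoters are RefSeq's; figures used matplotlib 3.10.9.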

Additional observations from a re-analysis of the deposited data

Results flagged for a closer look

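In 7 of 100 groups of 4 arrays, 1 array lay far from the other 3 by Dixon's gap ratio; chance gives about 1 in 20, and over all probe sets 5.34% of groups did so. High replicate 1 was the low array in 3 of them: Oas1a at 8.17 (others 8.63 to 8.65), Oas2 at 7.20 (7.65 to 7.68) and Gbp9 at 9.64 (9.90 to 9.95). Low replicate 1 was low for Cmpk2, at 7.29 (8.21 to 8.27), and for Irf9, at 10.42 (10.62 to 10.66). Low replicate 2 was low for Oas2, at 7.15 (8.0 to 8.15). High replicate 4 was high for Ifnar1, at 10.79 (10.58 to 10.59). The cause was not tested.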

How the results depend on the processing

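Irf2 stayed lower at an adjusted p under 0.05 in every setting run except the spike-in covariate. Genes of the list called lower numbered 1 with the replicate block, centring on array medians or a threshold of 0.01, and 0 with the spike-in covariate; genes called higher numbered 2 with an intensity trend and robust fit and 1 at a threshold of 0.10. Leaving out 1 array gave 1 to 2 lower and 0 to 3 higher genes. Over all probe sets the counts higher and lower were 0 and 0 with the covariate. Its values did not overlap between the fractions, so the 2 cannot be told apart in that fit, and the cause was not tested. The counts were 73 and 113 at 0.01, 2061 and 1174 at 0.10, and 183 to 1680 and 218 to 793 without 1 array. The trend and robust fit gave 1950 higher. Quantile normalization gave 852 higher and 858 lower against 1173 and 658. Median differences with the covariate were -0.206 (type I), -0.322 (GTPases) and -0.246 (IRF and receptor genes), and the last was -0.082 after quantile normalization. Without 1 array they ran from -0.069 to 0.024, -0.153 to -0.053 and -0.038 to 0.048. Same-numbered arrays deviated together with r = 0.271, 0.055, 0.015 and 0.039, and differently numbered arrays with r from -0.294 to 0.168. These values do not settle whether the numbers pair the samples, and the main fit did not pair them. The replicate block, which does, called 1225 higher and 650 lower. Of the 22 named calls the block lost 7: Irgm2 (adjusted p = 0.066), Ptpn2 (0.0751), Pias3 (0.0603), Herc6 (0.0554), Cxcl10 (0.067), Sp140 (0.0601) and Uba7 (0.0663). With the covariate all 22 were lost.

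Over the settings run the difference took both signs in 21 of 50 genes, Usp18 (-0.22 to 0.35) and Iigp1 (-0.06 to 0.41) among them, which passed without low replicate 3. Of the genes named by the stated rule, signs turned for Ifitm2 (-0.085), Ifnar1 (-0.046), Ifngr2 (-0.18) and Socs1 (0.035) with the covariate; Ifngr1 (0.020), Ifit2 (0.034) and Irf7 (0.00061) with array weights; Ifnar1 (-0.0087) and Ifngr2 (-0.065) after quantile normalization; and Ifngr2 (-0.0038) with centring. Without 1 array the range crossed 0 for Ifit2 (-0.16 to 0.20), Ifit3b (-0.17 to 0.040), Irf7 (-0.059 to 0.051), Ifngr1 (-0.043 to 0.060) and Ifngr2 (-0.0083 to 0.045). IFITM genes were positive in 1 of 3 after quantile normalization and in 0 of 3 with the covariate.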
